A study of Mus musculus with 12 samples.

Results

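The genes described here encode the cytoplasmic translation initiation factors (symbols Eif1 to Eif6) and elongation factors (symbols Eef1 and Eef2) of the mouse. They were chosen by symbol alone, with Eif2s3y left out, and 61 of the 22619 gene symbols matched. Of these, 60 reached 1 FPKM (fragments per kilobase of transcript, scaled to the mapped fragments of the library) in at least 2 of 12 libraries. Eef1a2, the muscle and nerve form of eEF1A, was listed at 0 in every library and was the 1 gene dropped. The same level was reached by 14447 symbols in all.

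All libraries were made with Smart-seq2, which copies whole mRNAs from a few cells or less. C57BL/6 embryos gave 3 groups: wild-type controls (control embryo, n = 2), knockouts of Dcaf11 (KO embryo, n = 3) and knockouts of Dcaf11 whose titles add "arrest" (KO arrest, n = 3). The remaining groups were 129Sv embryonic stem cells (ESC), as controls (control ESC, n = 2) and after knockdown of Dcaf11 (KD ESC, n = 2). The product of Dcaf11 recruits substrates to a CUL4-DDB1 ubiquitin ligase. The labels leave out the age, stage and sex of the embryos, the number of cells per library, and how knockout and knockdown were made. They do not tie the libraries of a group to separate embryos or cultures, so p-values here rest on differences between libraries that may be technical replicates.

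In cap-dependent initiation, the complex eIF4F (the cap-binding protein eIF4E, the scaffold eIF4G and the helicase eIF4A) recruits an mRNA to the small ribosomal subunit. That subunit carries eIF1, eIF1A, eIF3, eIF5 and a ternary complex of eIF2, GTP and initiator tRNA. After the start codon is found, eIF2 leaves as eIF2-GDP and is recharged by eIF2B, and eIF5B joins the large subunit. eEF1A then delivers each aminoacyl-tRNA and eEF2 moves the ribosome by a codon. An egg is loaded with maternal mRNA whose translation is held back and released in steps, and eIF4E and its binding partners are known points of that control.

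The libraries differed in ways other than the group. Between 6573 and 12061 genes reached 1 FPKM, with the fewest in control embryo 1. Read counts were not used, and relative depth was taken as the ratio of deposited coverage to FPKM. This ratio was 2.01 and 1.22 in control embryos, 0.585, 0.988 and 1.32 in KO embryos and 0.373, 0.523 and 0.659 in KO arrest. In ESC it ran from 0.566 to 1.08. Every KO arrest library was thus shallower than both control embryos. Whether depth had a part in the embryo comparisons was not tested. The 2 control embryos correlated less with each other (r = 0.774 across genes) than libraries of the other groups did (0.888 to 0.970). The summed level of 10 embryo and oocyte markers was 43212 to 65377 FPKM in control embryos, 19508 to 32697 in KO embryos, 23482 to 31403 in KO arrest and 9.73 to 53.8 in ESC. Most of that sum in KO arrest was 1 gene, Dppa3, and without it the other 9 summed to 38263 to 52979 FPKM, 12230 to 18142, 904 to 1519 and 1.25 to 2.04. The summed level of 8 pluripotency markers was 671 to 733 FPKM in control embryos, 1699 to 3022 in KO embryos, 1387 to 1985 in KO arrest, 3053 to 3111 in control ESC and 2331 to 2632 in KD ESC, and all 8 reached 1 FPKM in every ESC library. Dcaf11 itself was listed at 2.82 and 14.3 FPKM in control embryos, at 3.99, 2.84 and 0.184 in KO embryos and at 4.43, 0.422 and 6.02 in KO arrest. These overlap, so the level of Dcaf11 mRNA does not separate the embryo genotypes. Control ESC had 6.48 and 4.52, and KD ESC 1.69 and 1.83.

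Translation factor mRNAs made up a larger share of the listed transcripts in the knockout embryos than in the wild type. Their summed FPKM was 0.591% and 0.582% of all FPKM in the control embryos. KO embryos had 1.12%, 0.951% and 1.11%, and KO arrest had 1.47%, 1.51% and 1.56%. The 3 embryo groups did not overlap, in the order control embryo, KO embryo, KO arrest; the sum over the factors is given as a description, with no test. ESC stood above all of them, at 1.98% and 2.02% in the controls and 2.11% and 2.09% after knockdown. A single gene, Eef1a1, took 38.0% to 40.6% of the summed FPKM in ESC and 3.52% to 8.41% in embryos. Without Eef1a1 the share was 1.40%, 1.38% and 1.43% in KO arrest, above the 1.18% and 1.21% of control ESC and the 1.31% and 1.24% of KD ESC. These are shares within a library, and the number of cells per library is not given. More RNA per cell and more cells of a type cannot be told apart from them.

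**Figure D1:**
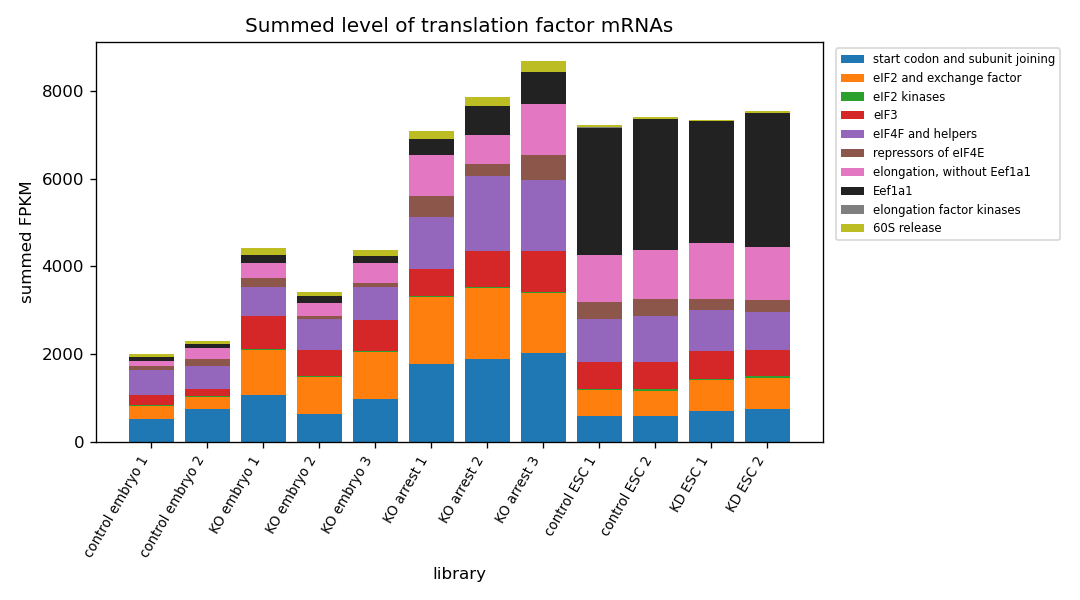
Stacked bars of summed FPKM (vertical axis, linear) for each of the 12 libraries (horizontal axis), coloured by role, with Eef1a1 apart. The bars rise from the 2 control embryos through the KO embryos to KO arrest, and the Eef1a1 segment is large in ESC only.

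By group mean, 26 of the 60 genes were highest in KO arrest, 17 in control ESC, 6 in KD ESC, 6 in control embryos and 5 in KO embryos. The 6 genes highest in control embryos were Eif4e1b, Eif4e3, Eif4enif1, Eif5a2, Eef2k and Eif2ak1. Of the 7 genes of start codon selection and subunit joining, 6 were highest in KO arrest. Of the 13 eIF3 genes, 7 were. Of the 12 genes of the cap-binding group, 5 were highest in control ESC and 3 in KO arrest. These are orders of means, and neighbours in the order were often closer than their spread. The means were not rescaled, although the FPKM of all named genes summed to more in KO arrest. That total was 480887, 520552 and 557017 in KO arrest and 339062 to 393146 in the other libraries.

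**Figure D2:**
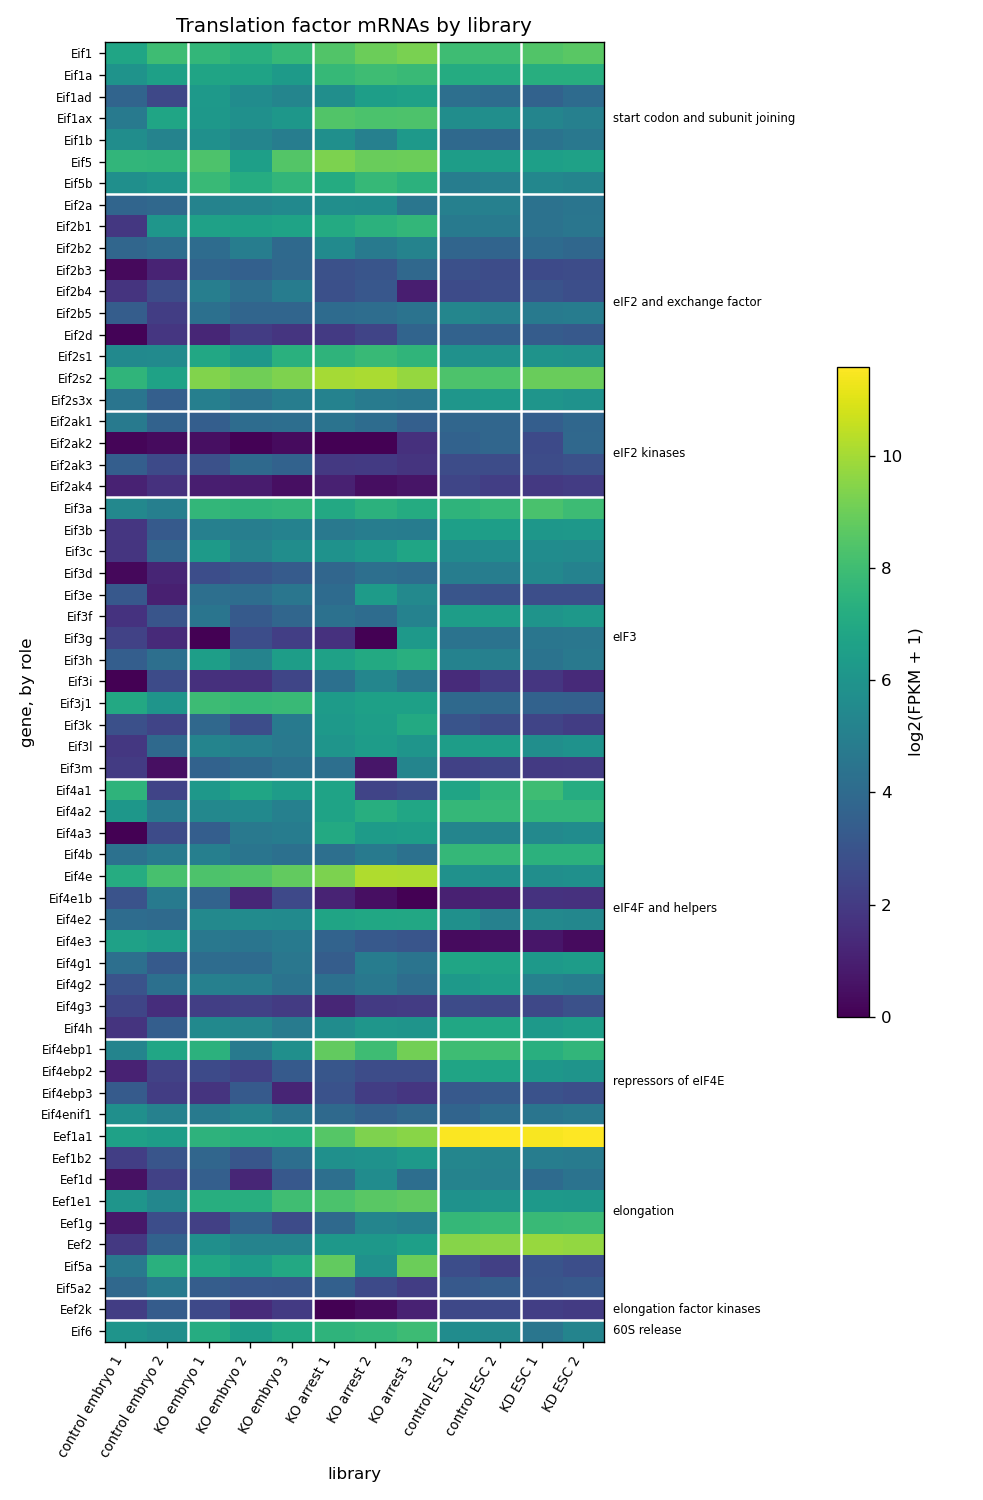
Heat map of log2(FPKM + 1) for the 60 genes (rows, ordered by role) in the 12 libraries (columns), darker or brighter colours as given by the scale bar. The rows of Eif3a, Eif3b, Eif3c, Eif3d, Eif3e, Eif3f, Eif3h and Eif3l are higher in every knockout embryo library than in both control embryos. Over all genes tested, 60.8% had a positive log2 fold change in KO embryos and 60.4% in KO arrest. The share of all genes that separate in every library was not counted.

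Each comparison was fitted across all genes with limma on log2(FPKM + 1), and a call needed a p, adjusted by Benjamini and Hochberg over all genes, under 0.05. In KO embryos against control embryos, 14 of 59 tested translation factors rose and 1 fell, against a background of 4.86% of 11795 genes higher and 1.5% lower. Their median log2 fold change was 1.1, beside 0.31 over all genes. In KO arrest against control embryos, 33 of 59 rose and 4 fell, where 16.4% of all genes were higher and 8.87% lower. The median was 1.86, beside 0.45 over all genes. KO arrest differed from KO embryos in fewer factors, with 9 of 59 higher and 2 lower (4.93% and 3.65% of all genes), a median of 0.69 beside 0.07. The knockout comparisons share the 2 control embryo libraries. How many of all genes separate the groups without overlap was not counted, so such statements below describe single genes only. Eif2ak2 did not pass the level filter in embryos.

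**Figure D3:**
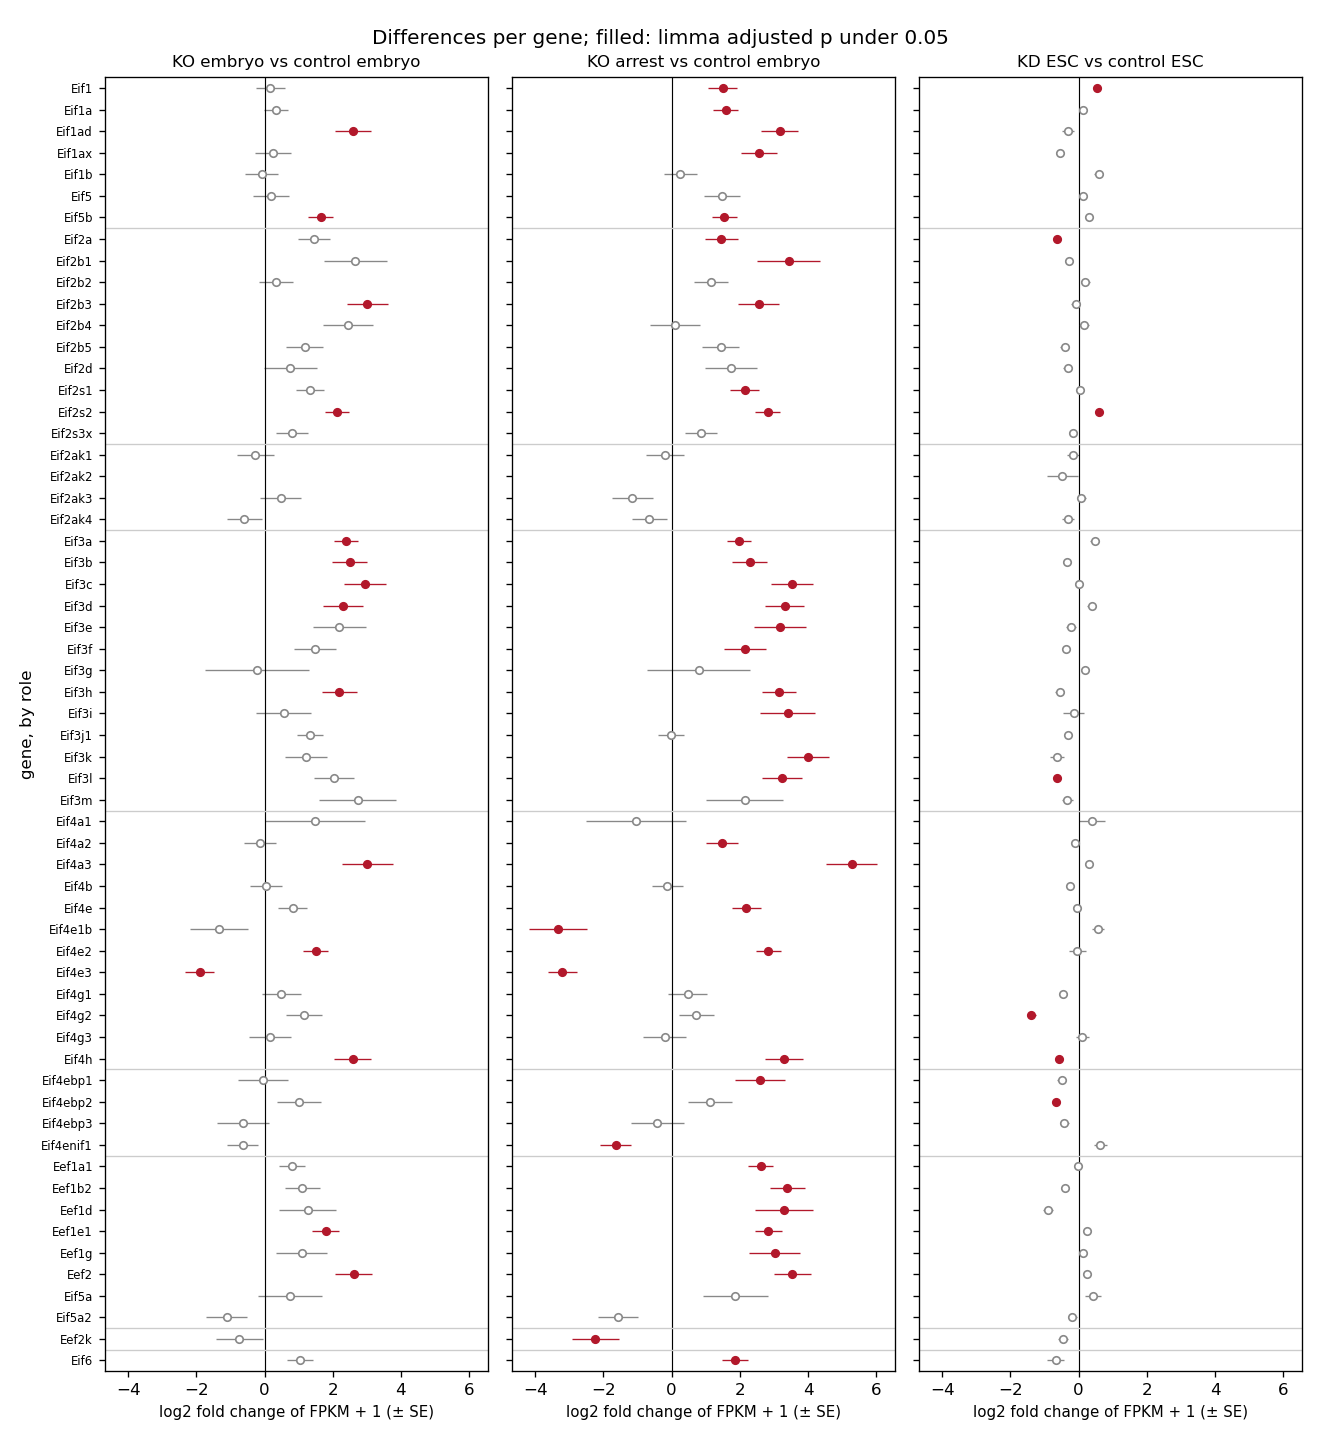
Log2 fold change of FPKM + 1 with its standard error (horizontal axis) for each gene (vertical axis, by role) in KO embryo against control embryo, KO arrest against control embryo and KD ESC against control ESC. Filled red points passed an adjusted p of 0.05: 15, 37 and 7 of the points in the 3 panels.

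The calls in KO embryos rested on few libraries. Eif3a alone was called without KO embryo 1 or without KO embryo 3, and it held in 17 of 18 alternatives, more than any of the other 14. Without KO embryo 2 the 14 rises became 4 (Eif2s2, Eif3a, Eif3c and Eif3h), without control embryo 1 they became 6, without KO arrest 2 they became 8, and without control embryo 2 they became 20. The fall of Eif4e3 there was lost without control embryo 1, any 1 KO embryo library or KO arrest 2. In KO arrest the rises stayed between 25 and 32 with any 1 library left out, and 19 of the 37 calls held in all 18 alternatives. The calls there that a single control library ended were those of Eef1d, Eef1g, Eif1, Eif2a, Eif3f, Eif3i, Eif4ebp1 and Eif4enif1 (control embryo 1) and of Eef2k, Eif2a, Eif3e, Eif4a2 and Eif4e1b (control embryo 2). Without KO arrest 2, 24 of the 37 calls remained, and without KO arrest 3, 29 did. Of the 4 falls 1, 2 and 2 were left without KO arrest 2, KO arrest 3 and control embryo 2. The 11 differences between KO arrest and KO embryos were less stable: 0 were called without KO embryo 2, KO arrest 2 or KO arrest 3, and 2 without KO embryo 1 or KO embryo 3. A scaling by the median of ratios moved the median of all genes by -0.36 in KO embryos and -0.42 in KO arrest. On that scaling 6 factors rose in KO embryos and 23 in KO arrest, with medians of 0.54 and 1.15 beside -0.05 and 0.02 over all genes. With TPM, 12 rose in KO embryos, and 26 rose and 5 fell in KO arrest. The TPM medians were 1.15 and 1.37 beside 0.35 and 0.0996 over all genes.

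Promoter sequences were read for the factors as a description. RefSeq entries on GRCm38.p6, which is not the build of the expression files, were found for 47 of the 60 genes. In the 250 bases before an annotated start, on either strand, 11 of the 47 genes (23.4%) held the E-box CACGTG, the core of the sites bound by MYC and USF proteins. Among all 27025 genes with an entry the share was 6.86%, and among the 10359 of them expressed here it was 9.62%. The ETS core CCGGAAG stood before 12 of the 47 genes (25.5%), against 7.83% of all genes and 14.7% of expressed genes. The TATA motif TATAAA was before 4 (8.51%, against 14.3% and 8.76%), and the cAMP response element TGACGTCA was before 0 of 47 (1.77% of all genes). A match is a description of these letters, not a bound site. Genes with the E-box also included Eef2k, which fell in KO arrest, and Eif1b, Eif4a1, Eif4g1, Eif5a and Eif5a2, which were not called there. Those with the ETS core also included Eif1b, Eif3g, Eif3m, Eif4ebp2, Eif5a and Eif5a2, likewise not called there. Whether either motif goes with the changes was not tested. The 100 bases before the start are shown for 6 factors, chosen among those that rose in KO arrest and held a motif. Of these, 3 have an E-box and 3 an ETS core. A second annotated start of Eif4e, with the window chr3:138526091-138526190, has none of the motifs in its 100 bases and is not shown. The motifs and a TATA motif are in capitals (CTTCCGG is the ETS core read from the other strand).
Eef2, chr10:81176531-81176630, plus strand: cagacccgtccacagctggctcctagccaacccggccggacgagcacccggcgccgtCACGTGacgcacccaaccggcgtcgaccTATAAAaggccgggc
Eif4e, chr3:138527168-138527267, plus strand: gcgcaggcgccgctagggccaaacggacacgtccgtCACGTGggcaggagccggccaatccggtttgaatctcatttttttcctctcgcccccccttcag
Eif4h, chr5:134639410-134639509, minus strand: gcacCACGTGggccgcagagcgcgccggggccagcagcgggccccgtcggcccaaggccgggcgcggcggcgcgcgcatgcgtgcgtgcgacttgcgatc
Eif3c, chr7:126566367-126566466, minus strand: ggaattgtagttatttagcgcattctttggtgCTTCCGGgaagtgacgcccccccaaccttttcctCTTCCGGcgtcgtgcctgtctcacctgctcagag
Eif3d, chr15:77970825-77970924, minus strand: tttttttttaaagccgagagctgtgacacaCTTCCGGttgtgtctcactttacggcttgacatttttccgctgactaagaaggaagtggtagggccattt
Eif3l, chr15:79075123-79075222, plus strand: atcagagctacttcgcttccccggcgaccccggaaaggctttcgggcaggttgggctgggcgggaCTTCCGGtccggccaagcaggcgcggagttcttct

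Among the genes of start codon selection and subunit joining, 5 of 7 rose in KO arrest and 2 of 7 rose in KO embryos. The shares of all genes were 16.4% and 4.86%. Eif1ad, whose product holds an eIF1A-like domain, was at 12.3 and 4.67 FPKM in control embryos, 75.9, 48.5 and 37.5 in KO embryos and 51.6, 89.4 and 98.2 in KO arrest. Every knockout library lay above both controls, with a log2 fold change of 2.60 ± 0.53 (SE, adjusted p = 0.0221) in KO embryos and 3.17 ± 0.53 (adjusted p = 0.00237) in KO arrest. Eif5b, the GTPase that joins the large subunit, was at 53.4 and 64.5 in control embryos, 227, 142 and 198 in KO embryos and 140.3, 212 and 175 in KO arrest. Here too the knockout groups lay above the controls and overlapped each other. The log2 fold change was 1.65 (adjusted p = 0.0322) in KO embryos and 1.55 (adjusted p = 0.0133) in KO arrest.

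The eIF1A genes behaved differently. Eif1ax, the X-linked copy of eIF1A, which keeps the scanning ribosome open, was at 26.4 and 111 FPKM in control embryos, 71.9, 55.2 and 68.5 in KO embryos and 339.7, 311 and 325 in KO arrest. The KO embryos lay between the 2 controls, and KO arrest lay apart at 4.99 times the KO embryo mean (log2 fold change 2.31, adjusted p = 0.0171). The autosomal copy Eif1a was at 61.1 and 94.7 FPKM in control embryos, 108, 106 and 78.4 in KO embryos and 216, 249.8 and 228 in KO arrest, and it also rose against KO embryos (log2 fold change 1.25, adjusted p = 0.0401). The products of the 2 copies are nearly alike, and no source used here gives how their reads were divided. Eif1, which guards start codon choice, rose in KO arrest only against control embryos (log2 fold change 1.5, adjusted p = 0.0279), with libraries at 111 and 255 FPKM in control embryos and at 349.5, 509 and 609 in KO arrest. That call was lost in 10 of 18 alternatives, among them the median-of-ratios scaling. Eif5, the GTPase activator of eIF2, was not called: its libraries were at 199 and 187 FPKM in control embryos, 319.9, 93.2 and 354 in KO embryos and 631, 484 and 506 in KO arrest.

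Of the 10 genes of eIF2, its exchange factor eIF2B and the related Eif2a and Eif2d, 5 rose in KO arrest and 2 in KO embryos. The shares of all genes were 16.4% and 4.86%. None of the 10 fell against the controls (0 at an unadjusted p under 0.05 in limma), beside 8.87% and 1.5% of all genes. Eif2s2 encodes the beta subunit of eIF2 (mm9 chr2:154697146-154718642) and was the most abundant gene of this set in every library. It was at 192 and 101 FPKM in control embryos, 678, 532 and 646 in KO embryos and 1040.4, 1091 and 855 in KO arrest. The 3 groups did not overlap. Its log2 fold change was 2.13 ± 0.36 (adjusted p = 0.0118) in KO embryos and 2.82 ± 0.36 (adjusted p = 0.000613) in KO arrest, a 6.78-fold higher mean. The alpha subunit gene Eif2s1, whose product is the target of the stress kinases, was at 43.6 and 44.9 FPKM in control embryos, 123, 70.3 and 165 in KO embryos and 185, 219.9 and 192 in KO arrest. It rose in KO arrest (log2 fold change 2.14, adjusted p = 0.00489) and was not called in KO embryos (adjusted p = 0.0853). The gamma subunit gene Eif2s3x was called in neither, at 21.3 and 10.3 FPKM in control embryos, 31.4, 21.3 and 28.6 in KO embryos and 33.8, 26.8 and 23.8 in KO arrest.

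The 5 eIF2B genes did not move as a unit. Eif2b3, of the catalytic part of the factor, was at 0.226 and 1.20 FPKM in control embryos, 12.1, 10.8 and 14.0 in KO embryos and 6.22, 7.24 and 13.9 in KO arrest. It rose in both knockout groups, with log2 fold changes of 3.01 (adjusted p = 0.0212) and 2.55 (adjusted p = 0.0119). Eif2b4, of the regulatory part, was at 2.35 and 5.50 FPKM in control embryos, 29.8, 18 and 27.6 in KO embryos and 6.18, 7.87 and 0.961 in KO arrest. KO embryos stood alone, above both other groups, but Eif2b4 was not called in KO embryos against control embryos. It was 1 of the 2 factors that fell in KO arrest against KO embryos (log2 fold change -2.36, adjusted p = 0.0493). That call held in 9 of 18 alternatives. Eif2b1 had control libraries at 2.63 and 66.0 FPKM, a spread that its rise in KO arrest to 135, 172 and 199.8 has to be read against (adjusted p = 0.0202). Eif2b2 and Eif2b5 were called in neither knockout group.

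None of the 3 eIF2 kinase genes tested in embryos was called by limma in any of the embryo comparisons. At an unadjusted p under 0.05 there were 0 in both knockout groups against the controls and 1 between the knockout groups. That gene was Eif2ak3, which encodes the endoplasmic reticulum kinase PERK, at 10.1 and 5.0 FPKM in control embryos, 6.37, 14.7 and 11.4 in KO embryos and 2.85, 2.89 and 2.33 in KO arrest (adjusted p = 0.0916). The KO arrest libraries lay below all 5 others. Eif2ak1, the heme-regulated kinase, was the highest of the 4 kinase genes in every embryo library. Eif2ak4, the amino acid sensor GCN2, was at 1.14 and 2.11 FPKM in control embryos, 0.952, 0.84 and 0.391 in KO embryos and 1.11, 0.33 and 0.564 in KO arrest. Eif2ak2, the double-stranded RNA kinase PKR, was at or under 0.404 FPKM in all embryo libraries but KO arrest 3, where it was at 2.06, and at 11.5 and 13.1 in control ESC.

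eIF3, the largest initiation factor, bridges the small ribosomal subunit and eIF4F. Of its 13 subunit genes, 10 rose in KO arrest and 5 in KO embryos, beside 16.4% and 4.86% of all genes. None of the 13 fell against the controls (0 at an unadjusted p under 0.05 in limma), beside 8.87% and 1.5% of all genes. The median level of the 13 genes was 3.10 and 7.32 FPKM in the control embryos. It was 21.3, 16.6 and 24.3 in KO embryos and 24.9, 75.7 and 65.6 in KO arrest, so every knockout library exceeded both controls. Under other scalings the count of rises in KO arrest was 9 (TPM), 7 (median of ratios) and 8 (with each library's trend over transcript length removed).

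The scaffold subunit gene Eif3a, on which the rest of the complex is assembled (mm9 chr19:60837019-60866596), was at 41.1 and 31.1 FPKM in control embryos, 203, 181 and 193 in KO embryos and 126, 174 and 137 in KO arrest. Its log2 fold change of 2.39 ± 0.35 had the smallest adjusted p of all factors in KO embryos (0.0085). In KO arrest it was 1.99 ± 0.35 (adjusted p = 0.00317), and the 2 knockout groups did not overlap, with KO embryos higher. Eif3b, the other core scaffold, was at 2.53 and 8.63 FPKM in control embryos, 32.1, 29.6 and 34.6 in KO embryos and 24.9, 29.4 and 28.2 in KO arrest. Eif3c was at 2.48 and 12.6 FPKM in control embryos, 78.2, 35.6 and 50.2 in KO embryos and 59.0, 75.7 and 110.0 in KO arrest. Both rose in both knockout groups, with log2 fold changes of 2.50 and 2.29 for Eif3b and of 2.94 and 3.54 for Eif3c. Eif3d, a subunit that can itself bind the mRNA cap, went from 0.181 and 1.31 FPKM in control embryos to 5.71, 7.06 and 9.01 in KO embryos and 13.1, 17.6 and 16.0 in KO arrest. Its 3 groups did not overlap, and the KO arrest mean was 20.8 times the control mean (log2 fold change 3.32, adjusted p = 0.00289). Eif3h, a subunit of the outer part of the complex, was at 9.89 and 17.7 FPKM in control embryos, 89.4, 35.1 and 85.4 in KO embryos and 99.3, 129 and 155 in KO arrest, and rose in both (adjusted p = 0.0335 and 0.00197).

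Some subunits rose in KO arrest and were not called in KO embryos. Eif3k was at 6.05 and 4.15 FPKM in control embryos, 14.2, 5.62 and 26.6 in KO embryos and 74.7, 88.8 and 131 in KO arrest. KO arrest lay above both other groups, with log2 fold changes of 4.0 (adjusted p = 0.00151) against the controls and 2.78 (adjusted p = 0.0151) against KO embryos. Eif3i was at 0 and 5.27 FPKM in control embryos, 2.09, 2.01 and 4.42 in KO embryos and 18.3, 38.7 and 23.1 in KO arrest, with log2 fold changes of 3.40 and 2.84 in the same 2 comparisons. Eif3l, which lies beside Eif3k in the complex, was at 2.69 and 14.5 FPKM in control embryos, 35.9, 31.3 and 24.3 in KO embryos and 64.4, 83.5 and 65.6 in KO arrest and rose against the controls (adjusted p = 0.00343) but was not called against KO embryos (adjusted p = 0.175). Eif3e and Eif3f also rose in KO arrest, with log2 fold changes of 3.18 and 2.16.

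Eif3j1 had another pattern. Its product binds the complex loosely and is not part of the stable core. It was at 126 and 64.6 FPKM in control embryos, 245, 218 and 226 in KO embryos and 81.3, 95.0 and 93.7 in KO arrest. It was the highest eIF3 gene in all 5 control and KO embryo libraries, while Eif3a or Eif3h was the highest in KO arrest and Eif3a in ESC. Between KO arrest and KO embryos it fell (log2 fold change -1.34, adjusted p = 0.0366), and against the controls it was called in neither group. Eif3g and Eif3m were not called and were uneven: Eif3g was listed at 0 in KO embryo 1 and KO arrest 2 and at 73.9 FPKM in KO arrest 3. A value of 0 in these files can be a failed estimate.

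**Figure D4:**
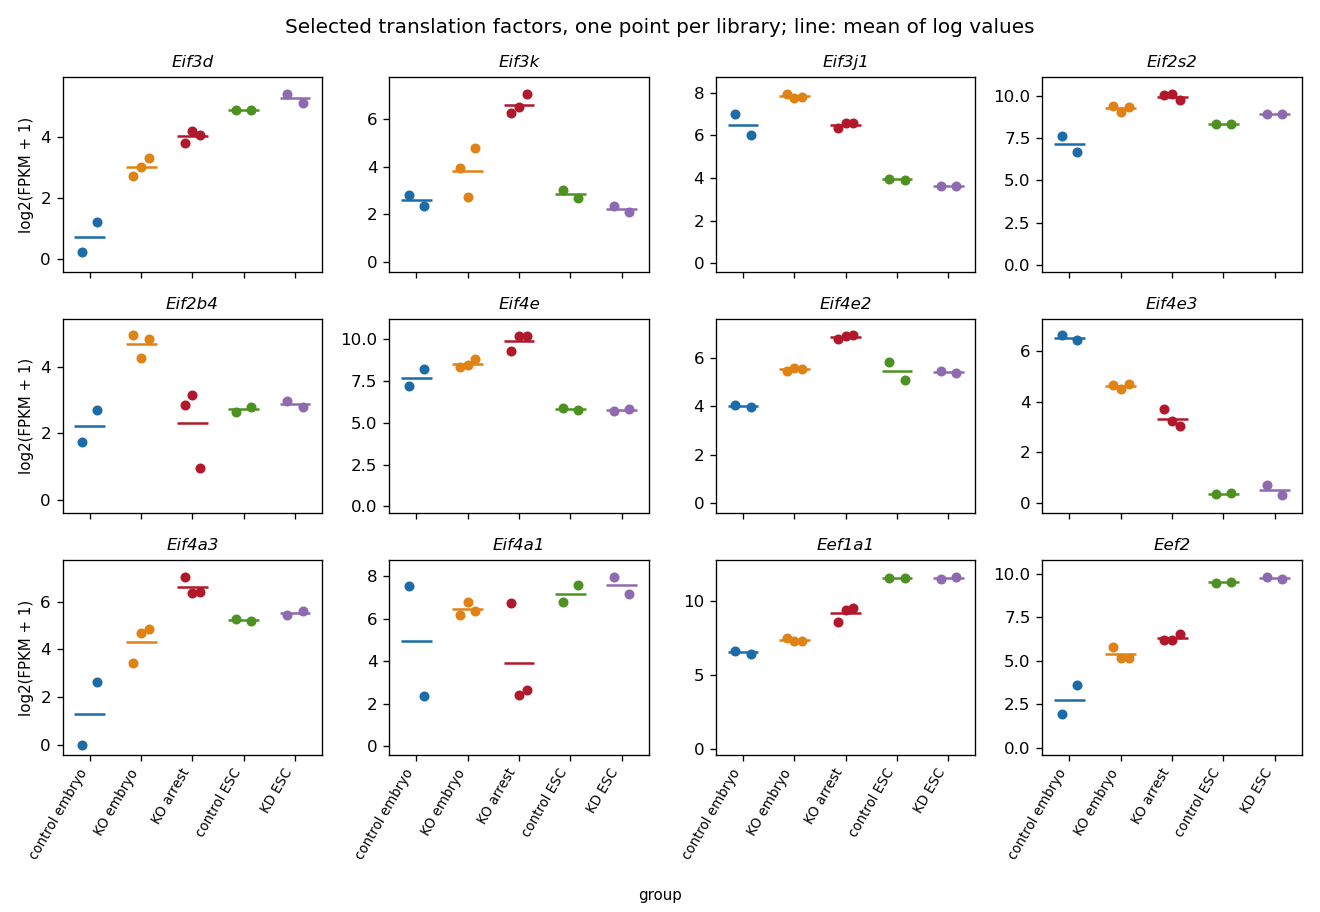
Log2(FPKM + 1) per library (vertical axis) by group (horizontal axis) for 12 factors, 1 point per library, with a line at the group mean of the log values. Eif3d, Eif3k, Eif2s2, Eif4e2 and Eif4a3 are highest among embryos in KO arrest, Eif4e3 is highest in control embryos, and Eef1a1 and Eef2 are highest in ESC.

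The cap-binding complex eIF4F and its relatives held changes in both directions. Of these 12 genes, 5 rose and 2 fell in KO arrest, beside 16.4% and 8.87% of all genes. In KO embryos 3 rose and 1 fell, beside 4.86% and 1.5%. The falls are too few to set apart from these shares. The 2 that fell in KO arrest both encode cap-binding proteins of the eIF4E family, and so do 2 of those that rose. Eif4e3, a divergent member of the family (mm9 chr6:99575131-99616765), was at 97.2 and 84.6 FPKM in control embryos, 24.1, 21.5 and 25.1 in KO embryos and 12, 8.33 and 7.22 in KO arrest. The 3 groups were far apart and did not overlap. The log2 fold change was -1.90 ± 0.44 (adjusted p = 0.0328) in KO embryos and -3.20 ± 0.44 (adjusted p = 0.000836) in KO arrest. Its mean was 9.91 times higher in control embryos than in KO arrest, and the fall in KO arrest held in all 18 alternatives.

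Eif4e1b, the form of eIF4E found in oocytes, was at 6.70 and 26.4 FPKM in control embryos, 12, 1.47 and 4.83 in KO embryos and 1.22, 0.371 and 0 in KO arrest. KO embryo 1 lay between the controls, and all 3 KO arrest libraries lay below every other embryo library. It fell in KO arrest (log2 fold change -3.33 ± 0.85, adjusted p = 0.0172) and was not called in KO embryos (adjusted p = 0.387). The call in KO arrest was lost without control embryo 2, KO arrest 2 or KO arrest 3, and over the 18 alternatives the adjusted p ran from 0.00279 to 0.0809. Its level across the 12 libraries was matched most closely by AI314180, Flcn and Camsap2, with Spearman correlations of 0.965, 0.951 and 0.944. These are orders over libraries that share 5 groups, given as a description.

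Eif4e itself, the main cap-binding protein (mm9 chr3:138189155-138220563), was at 145 and 299 FPKM in control embryos, 325, 345 and 445 in KO embryos and 629.6, 1179 and 1152 in KO arrest. KO arrest lay above all other embryo libraries (log2 fold change 2.19 ± 0.42 against the controls, adjusted p = 0.00486). Against KO embryos the adjusted p was 0.0504. Eif4e2, the cap-binding protein 4EHP, which does not bind eIF4G and represses its targets, was at 15.8 and 14.8 FPKM in control embryos, 42.8, 47.3 and 45.2 in KO embryos and 108, 119 and 120.1 in KO arrest and rose at each step, with log2 fold changes of 1.5 (adjusted p = 0.0402) in KO embryos and 1.34 (adjusted p = 0.0323) from KO embryos to KO arrest. The calls of Eif4e2 at these steps held in 5 and 8 of 18 alternatives. In every control embryo library Eif4e was the highest of the 4 family members and Eif4e3 the next. In every KO arrest library Eif4e2 was next to Eif4e.

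The helicase partners also split. Eif4a3, the DEAD-box helicase of the exon junction complex, showed the largest rise of all factors in the main fit. It was at 0 and 5.22 FPKM in control embryos, 9.89, 24.4 and 28.3 in KO embryos and 129.7, 81.3 and 84.8 in KO arrest. Its log2 fold change in KO arrest was 5.29 ± 0.75 (adjusted p = 0.00103). Without control embryo 1, where it was listed at 0, that value was 3.97, below the 4.23 of Eif3k. Eif4h, which stimulates eIF4A, was at 2.39 and 10.1 FPKM in control embryos, 44.4, 38.2 and 27.0 in KO embryos and 49.1, 67.5 and 62.8 in KO arrest, and it rose in both (adjusted p = 0.0256 and 0.00235). Eif4a2 was at 69.1 and 26.5 FPKM in control embryos, 41.3, 44.8 and 31.7 in KO embryos and 104, 154 and 114 in KO arrest and rose in KO arrest against the controls (adjusted p = 0.0411) and KO embryos (adjusted p = 0.0394), calls that held in 4 and 6 of 18 alternatives. Eif4a1, the main helicase of eIF4F, was uneven: its libraries were at 186 and 4.16 FPKM in control embryos, 71.2, 110.5 and 82.1 in KO embryos and 105, 4.25 and 5.26 in KO arrest (adjusted p = 0.635). The scaffold genes Eif4g1, Eif4g2 and Eif4g3 and the cofactor gene Eif4b were called in none of the 3 comparisons among embryo groups. Eif4b was at 19.1 and 26.3 FPKM in control embryos, 31.2, 21.6 and 18.4 in KO embryos and 17.7, 25.5 and 18.9 in KO arrest.

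Among the 4 repressors of eIF4E, 1 rose and 1 fell in KO arrest. These counts are too small to set apart from the 16.4% and 8.87% of all genes. None was called in KO embryos (0 at an unadjusted p under 0.05 in limma). Eif4ebp1, which holds eIF4E until mTOR phosphorylates it, was at 36.9 and 113 FPKM in control embryos, 171, 26.3 and 54.3 in KO embryos and 448, 255 and 550.1 in KO arrest. The KO arrest libraries lay above all others, and it rose against control embryos (log2 fold change 2.60, adjusted p = 0.0261) and KO embryos (log2 fold change 2.64, adjusted p = 0.0335). Eif4enif1, the nuclear import partner 4E-T that keeps eIF4E-bound mRNA silent in oocytes, went the other way. It was at 54.2 and 33.2 FPKM in control embryos, 25.7, 35.0 and 21.5 in KO embryos and 14.3, 10.7 and 14.0 in KO arrest, and fell in KO arrest (log2 fold change -1.64, adjusted p = 0.0257). Over 18 alternatives the call of Eif4ebp1 against control embryos held in 10 and that of Eif4enif1 in 12. Eif4ebp1 was lost without KO arrest 1 or KO arrest 3, and Eif4enif1 without KO arrest 2 or KO arrest 3. Both were lost without control embryo 1. Eif4ebp2 and Eif4ebp3 were not called among the embryo groups.

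Of the 8 elongation factor genes, 6 rose in KO arrest and 2 in KO embryos, beside 16.4% and 4.86% of all genes. Eef1a1, which carries aminoacyl-tRNA to the ribosome (mm9 chr9:78326261-78329531), was at 97.8 and 85.2 FPKM in control embryos, 175, 156 and 153 in KO embryos and 371, 657 and 729.8 in KO arrest. Its groups did not overlap, and KO arrest rose against the controls (log2 fold change 2.61 ± 0.38, adjusted p = 0.00112) and against KO embryos (log2 fold change 1.79 ± 0.34, adjusted p = 0.0124). Eef1a1 has many processed copies in the genome, and no source used here gives how shared reads were counted. Eef2, which moves the ribosome along the mRNA and whose promoter window holds both an E-box and a TATA motif, was at 2.77 and 11.4 FPKM in control embryos, 54.2, 35.1 and 35.5 in KO embryos and 71.3, 72.2 and 92.9 in KO arrest. It rose in KO embryos (log2 fold change 2.61, adjusted p = 0.0231) and in KO arrest (log2 fold change 3.54, adjusted p = 0.00151), where its mean was 11.2 times that of the controls.

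The subunits of eEF1B, which recharges eEF1A, also rose in KO arrest. Eef1b2 was at 3.46 and 7.20 FPKM in control embryos, 13.2, 7.56 and 17.3 in KO embryos and 54.9, 58.9 and 75.4 in KO arrest, and it differed from KO embryos too (log2 fold change 2.28, adjusted p = 0.017). Eef1g and Eef1d rose against the controls with log2 fold changes of 3.02 and 3.30. Eef1e1, a component of the aminoacyl-tRNA synthetase complex, was already high in control embryos at 65.4 and 40.7, and reached 150.1, 153 and 258 in KO embryos and 309.8, 392 and 436 in KO arrest (adjusted p = 0.0294 and 0.000944). Eif5a, which helps the ribosome through difficult peptide bonds, was uneven, at 24.8 and 161 FPKM in control embryos, 119, 84.6 and 126 in KO embryos and 449, 56.9 and 511 in KO arrest, and was not called. The related gene Eif5a2 was at 14.2 and 25.6 FPKM in control embryos, 9.66, 7.75 and 7.64 in KO embryos and 10.8, 5.01 and 3.33 in KO arrest, and was not called either (adjusted p = 0.0767 in KO arrest).

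Eef2k, the kinase that switches eEF2 off, was at 3.23 and 9.29 FPKM in control embryos, 4.91, 1.70 and 2.86 in KO embryos and 0, 0.269 and 1.15 in KO arrest. It fell in KO arrest (log2 fold change -2.24 ± 0.68, adjusted p = 0.0361), where all 3 libraries lay below the other 5. That call held in 9 of 17 alternatives and was lost without control embryo 2, KO embryo 3, KO arrest 1 or KO arrest 2. Eif6, which keeps the large subunit from joining too early, was at 62.1 and 51.5 FPKM in control embryos, 143, 87.3 and 128 in KO embryos and 181, 204 and 243 in KO arrest. Its 3 groups did not overlap, and it rose in KO arrest (log2 fold change 1.86, adjusted p = 0.00573).

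Markers of other cells differed between the same embryo groups. The summed level of 7 fibroblast markers was 17.1 to 67.2 FPKM in control embryos, 59.2 to 92.9 in KO embryos and 0.0513 to 2.90 in KO arrest, where Col1a2, Col3a1, Dcn, Lum and Postn were at 0 in every library. Of 8 blood markers 7 were found, and they summed to 71.4 to 173 FPKM, 209 to 325 and 0 to 10.1. The 9 cumulus and granulosa markers summed to 16.1 to 17.1, 1.33 to 5.95 and 0 to 2.65. The 4 primitive endoderm markers summed to 6.72 to 16.0, 22.7 to 39.3 and 25.4 to 44.1, and Gata6 among them was at 0.181 and 2.74 FPKM in control embryos, 0.391, 0.0951 and 0.347 in KO embryos and 32.9, 12 and 22.1 in KO arrest. The 6 trophectoderm markers summed to 0.726 to 22.7, 5.73 to 7.74 and 14.1 to 38.9, with Cdx2 at 0 in every embryo library. The part of these markers in the differences between embryo groups was not tested.

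Markers of the embryo itself also moved with the groups, and in opposite directions. Of the 10 embryo and oocyte markers, all reached 1 FPKM in every control embryo and 9 in every library of both knockout groups, and Zar1 was at 0 in KO arrest. Dppa3 was at 4949 and 12398 FPKM in control embryos, 12074, 7278 and 14555 in KO embryos and 21963, 30499 and 25965 in KO arrest. Omt2a was at 15257 and 18938 FPKM in control embryos, 6356, 4404 and 6708 in KO embryos and 683, 335 and 371 in KO arrest, and Omt2b at 20739 and 27071, 10152, 7079 and 10260, and 648, 429 and 514. Dppa3 was thus highest in KO arrest, whereas both Omt2 genes were lowest there. Of the pluripotency markers, Dppa5a made up most of the embryo sums, at 620 and 676 FPKM in control embryos, 2986, 1678 and 2853 in KO embryos and 1322, 1818 and 1833 in KO arrest. Tdgf1 was at 0 in both control embryos, at 0.537, 0.670 and 4.14 FPKM in KO embryos and at 23.4, 97.0 and 96.7 in KO arrest. The other 6 stayed at or below 24.1 FPKM in every embryo library, among them Pou5f1 at 0.663 to 8.10, where ESC had 246 to 356. The part of these markers in the results on the factors was not tested either.

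Across the 59 factors the Spearman correlation of fold change with transcript length was -0.17 in KO embryos and -0.23 in KO arrest, beside -0.06 and -0.19 over all genes, given as a description.

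The wider translation pathway was followed in 76 genes chosen by function. Of 69 tested in embryos, 9 rose in KO embryos and 21 in KO arrest, where 4.86% and 16.4% of all genes tested rose, and none fell in either (2 and 1 genes were lower at an unadjusted p under 0.05 in limma). The largest rises in KO embryos were those of Impact, an inhibitor of the kinase GCN2, and Mcts2, a factor of ribosome recycling and reinitiation. Both are imprinted genes expressed from the paternal copy. Impact was at 0.335 and 1.86 FPKM in control embryos, 85.9, 170.3 and 147 in KO embryos and 19.4, 11.5 and 15.2 in KO arrest. Mcts2 was at 0.996 and 2.77 FPKM in control embryos, 111, 89.0 and 80.7 in KO embryos and 14.5, 4.85 and 9.98 in KO arrest. For both genes KO embryos stood far above the other embryo groups, and the groups did not overlap. Their log2 fold changes were 6.06 ± 0.54 (adjusted p = 0.00239) and 5.09 ± 0.56 (adjusted p = 0.00239) in KO embryos. From KO embryos to KO arrest they fell by 3.02 and 3.23 (adjusted p = 0.0062 and 0.00588), and both kinds of call held in all 18 alternatives.

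The 9 rises in KO embryos became 2, 4 and 3 without KO embryo 1, KO embryo 2 and KO embryo 3, and 15 without control embryo 2. The 21 in KO arrest became 13 without control embryo 1 and 11 with the median of ratios.

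The recycling factor Abce1, which splits ribosomes after termination, was at 8.45 and 3.25 FPKM in control embryos, 47.5, 52.0 and 33.7 in KO embryos and 49.0, 48.3 and 58.7 in KO arrest. It rose in both knockout groups (adjusted p = 0.0122 and 0.00175). Of 6 tested genes for the modification of eIF5A and eEF2, 4 rose in KO arrest, a small list to set beside the 16.4% of all genes that rose there. Among them Dph3, needed for the diphthamide of eEF2, was at 2.96 and 11.7 FPKM in control embryos, 44.1, 42.1 and 46.0 in KO embryos and 80.8, 68.8 and 105 in KO arrest, and the product of Dnajc24 acts in the same pathway. Dnajc24 was at 0 and 3.28 FPKM in control embryos, 7.28, 3.57 and 1.63 in KO embryos and 26.0, 22.2 and 50.6 in KO arrest. Of the mTOR and MNK signalling list, 3 of 11 rose in KO arrest, beside the same share of all genes, among them Rheb, the GTPase that activates mTOR, at 39.1 and 73.1 FPKM in control embryos, 166, 252 and 303 in KO embryos and 359.5, 215 and 214 in KO arrest, and Larp1, a repressor of mRNAs for the translation machinery. Larp1 was at 2.42 and 3.53 FPKM in control embryos, 19.6, 24.9 and 19.1 in KO embryos and 20.0, 20.6 and 21.7 in KO arrest. Of 19 cytosolic aminoacyl-tRNA synthetase genes tested, 6 rose in KO arrest, beside 16.4% of all genes, and 1 in KO embryos, which is near the 4.86% of all genes. The stress response gene Asns, which makes asparagine, was at 0 and 0.0838 in control embryos, 1.84, 0 and 0 in KO embryos and 4.72, 5.76 and 16.0 in KO arrest, and rose against both (adjusted p = 0.0115 and 0.0319). None of the 6 mitochondrial factors was called in the knockout groups (2 and 3 at an unadjusted p under 0.05 in limma).

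Wild-type embryos and control ESC differed across the transcriptome, and the factors were called in shares near those of all genes. Strain and cell source differ along with the group here and cannot be told apart. Of 60 factors, 8 were higher in embryos and 29 lower, where 12.6% of 14447 genes were higher and 40.8% lower. The median log2 difference of -1.14 was close to the -1.01 over all genes. The split depended on the scaling: 13 were higher and 21 lower with the median of ratios, which moved the median of all genes by 0.58, and 13 and 22 with the length trend removed.

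The elongation factors had the greatest distance. Eef2 was at 721 and 745 FPKM in control ESC, 104 times the embryo mean (log2 difference -6.75, adjusted p = 6.47e-06). Eef1a1 was at 2906 and 2984, 32.2 times the embryo mean (log2 difference -5.0, adjusted p = 3.29e-06). Eef1g was at 208 and 222 against 0.672 and 5.60 in embryos. By contrast Eif5a was lower in ESC, at 5.72 and 3.64 FPKM (log2 difference 3.54 for embryos minus ESC, adjusted p = 0.0159), with embryo libraries that differed from each other. That call was lost without control embryo 2 or control ESC 2. The 8 genes higher in embryos became 5 without control embryo 2 and 4 without control ESC 1 or control ESC 2. In KO arrest, which was not tested against ESC, Eef2 and Eef1a1 lay below every ESC library, and the means of control ESC were 9.31 and 5.03 times higher.

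Among the cap-binding proteins, embryos had more Eif4e3, Eif4e1b and Eif4e, and ESC more Eif4e2. Eif4e3 was at 0.263 and 0.329 FPKM in control ESC, and its log2 difference of 6.15 ± 0.35 was the largest in favour of embryos (adjusted p = 3.27e-06). Eif4e was at 57.4 and 53.2 in control ESC, 4.0 times higher by mean in control embryos (adjusted p = 0.00255). Eif4e1b was at 1.08 and 1.21 (adjusted p = 0.014, from 0.00116 to 0.0855 over 21 alternatives). The call for Eif4e2 (log2 difference -1.42) was lost with the median of ratios and with the length trend removed. Other genes of eIF4F and its helpers were lower in embryos: Eif4g1 was at 111 and 106 in ESC, Eif4b at 209 and 206 and Eif4h at 119 and 118. The repressor Eif4ebp2 showed the same direction, at 106 and 106 in ESC and 1.16 and 3.86 in embryos (log2 difference -5.04, adjusted p = 2.19e-05).

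Within eIF3, 7 of 13 genes were lower in embryos and 1, Eif3j1, was higher, near the 40.8% and 12.6% of all genes. Eif3d had a log2 difference of -4.17 (adjusted p = 2.68e-05), Eif3f of -4.07 and Eif3b of -3.96. Eif3j1 was at 14.7 and 14.1 FPKM in control ESC against 126 and 64.6 in embryos (log2 difference 2.57, adjusted p = 0.00012). Of the eIF2 and eIF2B set, 6 of 10 were lower in embryos and none was higher (0 higher at an unadjusted p under 0.05 in limma), a count to read against the same shares. Eif2ak2 was the kinase gene with the greatest difference (log2 difference -3.48, adjusted p = 0.000795). Altogether 22 of the 37 calls held in all 21 alternatives, among them those of Eef1a1, Eef2, Eif3d, Eif3j1, Eif4e, Eif4e3 and Eif4ebp2. Of 72 other pathway genes, 3 were higher in embryos and 38 lower, beside 12.6% and 40.8% of all genes, with 12 higher on the median-of-ratios scaling. The 3 became 5 and 6 without control embryo 1 and control embryo 2, and 1 without control ESC 1 or control ESC 2. Asns had the greatest difference (log2 difference -6.82, adjusted p = 2.06e-05), at 118 and 115 FPKM in control ESC, and 14 of 20 aminoacyl-tRNA synthetase genes were lower in embryos.

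**Figure D5:**
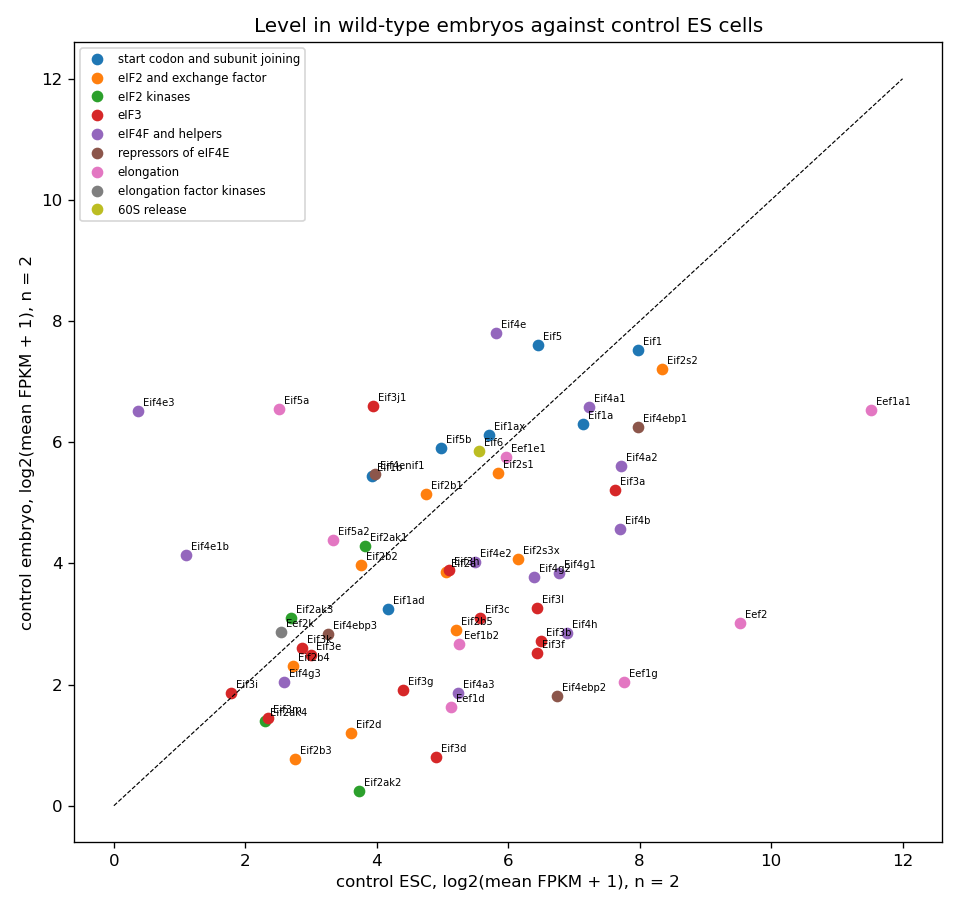
Level in control embryos (vertical axis) against control ESC (horizontal axis), as log2(mean FPKM + 1) over 2 libraries each, 1 point per factor coloured by role, with a dashed line of equality. Eef1a1 and Eef2 lie far below the line, and Eif4e3 and Eif5a lie above it.

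In ESC the knockdown of Dcaf11 went with small changes. Of 59 factors tested, 2 rose and 5 fell, beside 2.59% and 3.64% of 12264 genes, and the median log2 fold change was -0.16 beside -0.09 over all genes. Eif4e3 did not pass the level filter in ESC. Eif2s2 was at 326 and 318 FPKM in control ESC and 486 and 484 after knockdown (log2 fold change 0.59 ± 0.06, adjusted p = 0.03). Eif1 was at 252 and 249 in control ESC and 342 and 394 after knockdown (log2 fold change 0.55, adjusted p = 0.0479). For both genes the groups did not overlap, and the replicates were close.

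The greatest fall was that of Eif4g2, also called DAP5, a scaffold of cap-independent initiation that lacks the eIF4E site (mm9 chr7:118211499-118226544). It was at 76.1 and 89.6 FPKM in control ESC and 32.9 and 28.9 after knockdown (log2 fold change -1.39 ± 0.13, adjusted p = 0.0284), a 2.68-fold lower mean. Eif4ebp2 was at 106 and 106 in control ESC and 68.9 and 63.6 after knockdown (log2 fold change -0.67, adjusted p = 0.0333). Eif3l, Eif2a and Eif4h fell by 0.62, 0.62 and 0.57 on the log2 scale. None of the 8 elongation factors was called (4 at an unadjusted p under 0.05 in limma), and Eef1a1 was at 2906 and 2984 in the controls and 2794 and 3056 after knockdown. This fit has 2 residual degrees of freedom, and no call held in all 13 alternatives: 0 factors were called without control ESC 1 or without control ESC 2, and the falls became 2 without KD ESC 1. With the median of ratios 2 rose and 3 fell, and with TPM 2 and 2.

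Of 71 other pathway genes tested in ESC, 4 rose and 1 fell, beside 2.59% and 3.64% of all genes, so the counts are close to the background. Nars, the asparaginyl-tRNA synthetase gene, was at 4.93 and 4.10 FPKM in control ESC and 46.1 and 36.2 after knockdown (log2 fold change 2.93 ± 0.17, adjusted p = 0.0153). The call held in 11 of 13 alternatives. Without control ESC 1 or control ESC 2, 0 pathway genes were called, and without KD ESC 1 1 was. Control embryos had 19.7 and 12 FPKM of Nars, and KO arrest, where it was not called, 39.0, 29.5 and 21.4. Rars, Larp1 and Pabpc1 also rose in KD ESC, with log2 fold changes of 0.80, 0.49 and 0.32.

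The response to the loss of Dcaf11 was compared between embryos and ESC by the difference of the log2 fold changes in a fit of all 12 libraries. For KO embryos minus KD ESC, 4 of 60 factors were called with a positive difference and 0 with a negative one. The shares of all 14447 genes were 2.06% and 0.623%. Of the factors, 2 were negative at an unadjusted p under 0.05 in limma, and 1 was called negative with the median of ratios. The 4 were Eif2b3, Eif3a, Eif3b and Eif4h. None of these calls held without KO embryo 1 or without any 1 of the ESC libraries, and without KO embryo 3 or KO arrest 2 there were 1 and 2. For KO arrest minus KD ESC, 27 differences were positive and 3 negative, beside 9.07% and 4.97%. The 3 were those of Eif4e3, Eif4e1b and Eif4enif1, which fell in KO arrest. With the median of ratios the counts were 14 and 5, and 13 or 14 were positive without any 1 of the 4 ESC libraries. The differences for Eef1b2, Eef2, Eif3d, Eif3h, Eif3k, Eif3l, Eif4e2, Eif4e3 and Eif4h held in all 20 alternatives. The 2 systems differ in strain and cell source as well as in knockout against knockdown, which cannot be told apart.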

How the data were processed

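The deposited tables hold 1 row per assembled gene, with values in FPKM and TPM and a mean read coverage. Reads were aligned to mm9 with STAR 0.6.0 and assembled with StringTie, and DESeq2 is also named, per the submitters' processing notes; how the authors scaled FPKM and TPM is not given beyond that. The authors' deposited coverage signal was used only for relative depth. Here FPKM was summed per gene symbol and tested as log2(FPKM + 1), which understates changes of low genes, with limma 3.58.1 (R 4.3.3, trend on). Genes needed 1 FPKM in at least 2 libraries of the fit, and p-values were adjusted over all genes. The 8 embryo libraries, the 4 ESC libraries and all 12 (embryos against ESC and differences of effects) were fitted apart, with 5, 2 and 7 residual degrees of freedom. Fold changes in times are ratios of mean FPKM. The fit was also run on simulated data, with independent noise in each library and known changes planted in genes of higher level only. Its outcome is not given here. Such data cannot speak to shared embryos, differences in depth or changes of low genes.

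Alternatives were another pseudocount, no filter or a stricter one, TPM, median-of-ratios scaling, weights per library, a replicate block, removal of each library's trend over GENCODE vM21 transcript length, other sets of libraries and leaving out each library. The named genes were the 3 of smallest p in each role, the 5 called rises and falls of greatest size, and the 2 called genes of smallest p in each other pathway list; further genes were named after their values were seen. The members and lists were chosen with earlier results of these data known. Promoters were read from RefSeq (GRCm38.p6). Figures were drawn with matplotlib 3.10.9.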

Additional observations from a re-analysis of the deposited data

Results flagged for a closer look

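The change with loss of Dcaf11 differed between embryos and ESC for the genes below, by a test of the difference itself in limma over all 12 libraries. Each value is the log2 fold change of the knockout embryos against control embryos minus that of KD ESC against control ESC, with Benjamini-Hochberg adjustment over 14447 genes. A positive value is a greater rise, or a smaller fall, in embryos.

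For KO embryos, the 4 differences were 3.11 ± 0.61 (SE, adjusted p = 0.0298) for Eif2b3, 1.93 ± 0.34 (0.0204) for Eif3a, 2.86 ± 0.57 (0.0311) for Eif3b and 3.16 ± 0.67 (0.041) for Eif4h. In each case the embryo genes rose, and the ESC change was between -0.57 (Eif4h) and 0.46 (Eif3a).

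For KO arrest, 30 genes differed, and 9 of these were eIF3 subunits. Those differences were 4.63 for Eif3k, 3.87 for Eif3l, 3.70 for Eif3h, 3.54 for Eif3i, 3.52 for Eif3c, 2.94 for Eif3d, 2.64 for Eif3b, 2.54 for Eif3f and 1.52 for Eif3a. Among elongation factors they were 4.19 for Eef1d, 3.80 for Eef1b2, 3.30 for Eef2, 2.62 for Eef1a1 and 2.59 for Eef1e1. Genes of start codon selection and of eIF2 gave 3.48 for Eif1ad, 3.12 for Eif1ax, 1.47 for Eif1a, 2.64 for Eif2b3, 2.23 for Eif2s2, 2.09 for Eif2s1 and 2.08 for Eif2a. The role group of eIF4F and its relatives gave 4.99 for Eif4a3, the greatest in this fit, 3.87 for Eif4h and 2.88 for Eif4e2. It also gave 2.24 for Eif4e and 2.12 for Eif4g2, and Eif6 gave 2.54. The negative differences were -3.89 for Eif4e1b, -3.34 for Eif4e3 and -2.28 for Eif4enif1. Adjusted p ran from 0.00233 for Eif4e2 to 0.0494 for Eif3i. For Eif4g2 the difference came with a fall in KD ESC (-1.39) and no call in KO arrest (0.73). For Eif2s2, which rose in both systems, the rise in KO arrest was the greater.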

How the results depend on the processing

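Counts of factors called are given as higher and lower. KO embryos against control embryos had 14 and 1, which became 5 and 1 with no filter on low values, 6 and 1 with the median of ratios, 7 and 1 with the length trend removed, 2 and 0 with weights per library, and 2 and 0 with only the groups compared. Leaving out 1 library gave 1 to 20 and 0 to 1. KO arrest against control embryos had 33 and 4, which became 26 and 5 with TPM and 23 and 5 with the median of ratios. The falls became 2 with no filter, 1 with weights and 2 with only the groups compared, and leaving out 1 library gave 25 to 32 and 1 to 4. KO arrest against KO embryos had 9 and 2. It became 6 and 1 with pseudocount 0.1, 4 and 0 with no filter, 4 and 3 with TPM, 6 and 1 with the median of ratios, 7 and 1 with the length trend removed, 16 and 8 with weights, 15 and 4 with only the groups compared and 14 and 4 with all 12 libraries in 1 fit. Leaving out 1 library gave 0 to 15 and 0 to 4.

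KD ESC against control ESC had 2 and 5, which became 1 and 3 with pseudocount 0.1, 1 and 2 with no filter, 2 and 2 with TPM, 2 and 3 with the median of ratios and 0 and 0 with all 12 libraries in 1 fit. Leaving out 1 library gave 0 to 2 and 0 to 7. Control embryos against control ESC had 8 and 29, which became 13 and 21 with the median of ratios, 13 and 22 with the length trend removed, 4 and 24 with weights and 5 and 24 with only the groups compared. Leaving out 1 library gave 4 to 9 and 25 to 34. In this comparison Eif1a turned to 0.14 with the median of ratios and 0.015 with the length trend removed, and Eif2ak4 to 0.24 with the latter. Without a control embryo, Eif2b1 ran from -2.89 to 1.32 and Eif1ax from -0.93 to 1.1, so the sign of both turned on which control was left out.

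The difference of effects for KO embryos had 4 and 0, which became 2 and 0 with pseudocount 0.1, 4 and 1 with no filter, 7 and 0 at a minimum of 5 FPKM, 1 and 1 with the median of ratios and 8 and 0 with weights. Leaving out 1 library gave 0 to 21 and 0 to 1. That for KO arrest had 27 and 3, which became 14 and 5 with the median of ratios. Leaving out 1 library gave 13 to 34 and 1 to 3. The cause of these changes was not tested. A lone library left in a group is assumed to vary like the others.

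A replicate block gave 0 and 0 in KO embryos, 28 of 37 calls kept in KO arrest with 1 fall, 4 and 0 between the knockout groups, 0 and 0 in KD ESC, and 0 and 0 and 19 and 1 in the differences of effects. Deviations of libraries of the same number from their group means had correlations of -0.101 to 0.0247. In groups of 2 libraries these deviations mirror each other. The values therefore cannot decide whether libraries of a number share a batch, and the labels do not say.

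The 76 other pathway genes were rerun under the same alternatives, a choice made after seeing the data. Their 21 rises in KO arrest became 11 with the median of ratios, 12 with the length trend removed, 13 with TPM and 10 with weights. Depth is known only in relative terms, which limits the low factors most.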
